A study of Rattus norvegicus with 20 samples.

Results

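The spleen pool is 1 of the 20 small RNA libraries of the series, and it was set against the 13 other tissue pools and against brain. The animals were male Long Evans rats, untreated and killed on postnatal day 35. Each tissue pool combined miRNA from 3 rats in 1 library, whereas brain hemispheres were run as 3 libraries of 1 rat each and their levels were averaged, so that 15 tissues were compared. All animals were non-drinking controls, and no group differed in strain, sex, age or treatment. The 3 serum libraries were left out of the comparison. With 1 spleen library there is no replicate of this tissue, so no test was possible. Intervals at 95% (Wilson) cover counting error only, and differences between rats and preparations are not measured.

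The spleen filters blood and houses lymphocytes and phagocytes. Its red pulp traps ageing red blood cells, and in young rats it also makes blood cells. A miRNA is cut from a hairpin precursor into short arms, named 5p and 3p by their side of the hairpin, and it pairs with mRNA mainly through its seed, bases 2 to 8 of the arm. Several miRNAs are known as marks of blood cells. mir-144 and mir-451 share a transcript that is switched on in red cell precursors. mir-223 is typical of granulocytes and monocytes, mir-150 of mature lymphocytes, and mir-142 of nearly all blood cells other than mature red cells. In bulk tissue, fewer cells of a type and less RNA per cell cannot be told apart.

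The sequences below carry the pattern of the spleen pool and come from RefSeq (build GRCr8). First, the hairpins of the red cell pair and of mir-142 are shown with their annotated 5p and 3p arms in capitals. These hairpins had the largest differences of the spleen above the median of the other tissues, though thymus exceeded the spleen for mir-142. On chromosome 10, both hairpins of the red cell pair lie on the plus strand within 244 bases.
mir-144, chr10:63459397-63459479: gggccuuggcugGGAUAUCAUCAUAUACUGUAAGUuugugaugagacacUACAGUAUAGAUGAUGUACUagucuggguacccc
mir-451, chr10:63459569-63459640: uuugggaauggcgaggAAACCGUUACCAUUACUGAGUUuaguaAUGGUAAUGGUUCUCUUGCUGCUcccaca
mir-142, chr10:73055104-73055190: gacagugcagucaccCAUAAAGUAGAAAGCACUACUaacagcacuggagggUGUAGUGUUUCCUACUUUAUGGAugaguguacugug

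Mature arms of the white cell and proliferation lists are shown next with the seed in capitals, to show which of them share a seed. Each has at least 1 precursor that was called high in spleen, apart from miR-146a, miR-146b, miR-25 and miR-20b. miR-17, miR-20a, miR-20b, miR-93 and miR-106b share AAAGUGC, both miR-19 forms share GUGCAAA, and miR-92a, miR-25 and miR-363 share AUUGCAC. Of the white cell arms printed, only the miR-146 forms share a seed, and miR-150-5p is named without a sequence.
miR-223-3p: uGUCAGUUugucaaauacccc
miR-155-5p: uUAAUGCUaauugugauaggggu
miR-146a-5p: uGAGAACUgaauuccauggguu
miR-146b-5p: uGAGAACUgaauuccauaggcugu
miR-17-5p: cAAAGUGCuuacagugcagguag
miR-20a-5p: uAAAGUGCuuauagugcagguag
miR-20b-5p: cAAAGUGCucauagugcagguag
miR-93-5p: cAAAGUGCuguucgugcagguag
miR-106b-5p: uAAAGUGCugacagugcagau
miR-18a-5p: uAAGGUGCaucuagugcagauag
miR-19a-3p: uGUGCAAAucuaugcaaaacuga
miR-19b-3p: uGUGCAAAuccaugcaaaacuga
miR-92a-3p: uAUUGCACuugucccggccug
miR-25-3p: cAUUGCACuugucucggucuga
miR-363-3p: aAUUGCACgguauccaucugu

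Arms of 4 of the 7 precursors called low in spleen are shown last, and these 4 have different seeds. miR-200b-3p, miR-200a-3p and miR-429, from the 3 lowest precursors, are named without a sequence.
miR-141-3p: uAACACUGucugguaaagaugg
miR-182: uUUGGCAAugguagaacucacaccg
miR-203a-3p: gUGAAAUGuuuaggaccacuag
miR-31a-5p: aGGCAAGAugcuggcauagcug

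The spleen library held 213413 reads on 444 listed precursors, against 162080 to 3685761 in the 14 pools (median 593806), and 2 pools were shallower. Levels are given as RPM, reads per 1000000 of the library's precursor total, and 3 spleen reads correspond to 14.1 RPM. The library labelled pancreas stood apart from its label. Its level of the liver miRNA mir-122 was 14862 RPM, where liver had 14726 RPM and no other tissue exceeded 8.17 RPM. It held 0 reads of the pancreas miRNAs mir-216a and mir-217, and was most like liver (r = 0.97 across precursors). The counts of high and low calls are given below with and without it.

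The differences below are log2(RPM + 1) in spleen minus the median of the other 14 tissues. A precursor was called high at a difference of 2 or more (4-fold) with at least 10 spleen reads, and 29 of the 276 precursors with a mean of at least 10 RPM were (10.5%). It was called low at -2 or less among the 111 whose median elsewhere was at least 100 RPM, and 7 were (6.31%). Without the library labelled pancreas, 31 were high and 7 were low. The median over all 276 was 0.42. The 10 most abundant precursors took 63.3% of the spleen reads, and this median moved with the scaling. It was -0.41 with TMM factors, -0.03 with DESeq2 size factors and 0.01 with totals that leave out the 5 most abundant precursors. Under all 3 of these scalings together, 15 of the 29 high precursors and 7 of the 7 low ones remained past 4-fold.

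The red blood cell pair was the furthest from the other tissues. mir-451 had 1286 spleen reads, 6026 RPM (5706 to 6363), and in the other tissues ran from 0.814 RPM in large intestine over a median of 12.9 RPM to 152 RPM in lung. The spleen was 39.6-fold above lung and its difference was 8.76. mir-144 had 1449 spleen reads, 6790 RPM (6450 to 7147), against 1.63 RPM in large intestine, a median of 17.3 RPM and 198 RPM in heart, a difference of 8.54. No other tissue came near the spleen for either hairpin, and the 3 brain hemispheres lay between 0 and 12.3 RPM. Lung, heart and the library labelled pancreas held the next highest levels of both. mir-144 took 53.0% (51.1 to 54.8) of the reads of the pair in spleen, 55.6% (52.2 to 59.0) in lung and 60.3% (53.2 to 67.0) in heart. The intervals of spleen and lung overlapped, and those of spleen and heart did too. Liver was at 77.4% (64.5 to 86.5) from 53 reads, above the spleen interval. The other listed red cell miRNA, mir-486, was not analysed here.

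**Figure D1:**
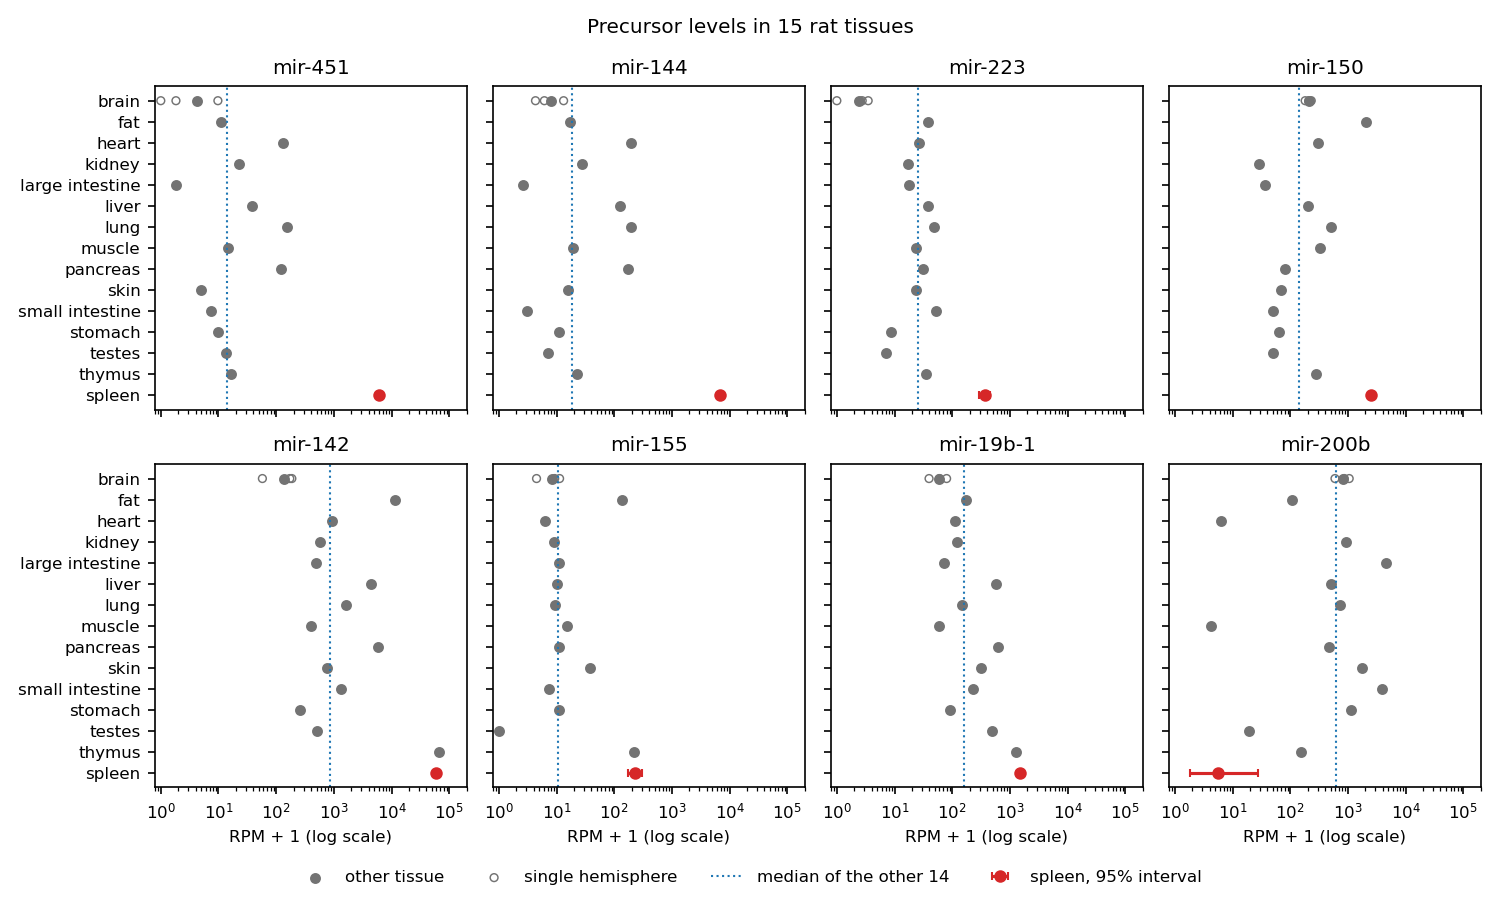
Levels of 8 precursors in 15 tissues, as RPM + 1 on a log axis. Grey points are other tissues, open circles the 3 brain hemispheres, red points the spleen with its 95% counting interval, and the dotted line the median of the other 14 tissues. mir-451 and mir-144 stand 39.6-fold and 34.3-fold above the next tissue, mir-142 and mir-155 are shared with thymus, and mir-200b is near the bottom.

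All 7 white blood cell precursors lay above the median of the other tissues, against 171 of all 276 tested. The list median difference was 3.86 against 0.42 over all tested, and 5 of 7 were called high, against 29 of 276 (10.5%). Its members were chosen with earlier results of these data known, so this share describes them and is not a test. mir-223, the granulocyte and monocyte mark, had 78 reads, 365 RPM (293 to 456), while the other tissues ran from 1.41 RPM in brain over a median of 24.3 RPM to 51.2 RPM in small intestine. The spleen was 7.13-fold above the next tissue, and mir-223 was highest in spleen under every scaling. mir-150, the lymphocyte mark, was at 2498 RPM (2295 to 2718), a difference of 4.28. Fat was close behind at 2072 RPM, lung followed at 498 RPM, and thymus was at 281 RPM. The remaining tissues ran from 27.8 RPM in kidney to 325 RPM in muscle. With TMM factors fat was above the spleen, so the order of these 2 tissues depends on scaling.

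mir-142, shared by blood cells of nearly all kinds, was the most abundant of the white cell precursors at 59167 RPM (58174 to 60176), a difference of 6.12. Thymus was higher still at 65299 RPM and fat followed at 11488 RPM, whereas the median elsewhere was 854 RPM and brain was lowest at 138 ± 70.7 RPM (SD, n = 3). mir-155, induced in activated lymphocytes and macrophages, was at 230 RPM (174 to 304) from 49 reads, against 216 RPM in thymus, 133 RPM in fat and a median of 9.53 RPM. The spleen interval for mir-155 includes the thymus value. mir-342 was at 201 RPM (150 to 271), a difference of 2.52, and brain was at 228 ± 25.9 RPM (SD, n = 3).

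The mir-146 forms differ from the rest of the list. They share the seed GAGAACU and are known to restrain inflammatory signalling. mir-146a was the most widely expressed, at 9044 RPM (8651 to 9454) in spleen, 7026 RPM in fat and a median of 2291 RPM. At 1.98 it was just outside the threshold, as was mir-340-1 at 1.97, while mir-93 at 2.04 was just inside. mir-146b, at 3875 RPM, was below lung at 10360 RPM. Summed over the list, the spleen held 75380 RPM, thymus 71893 RPM, and the lowest tissue 1816 RPM.

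**Figure D2:**
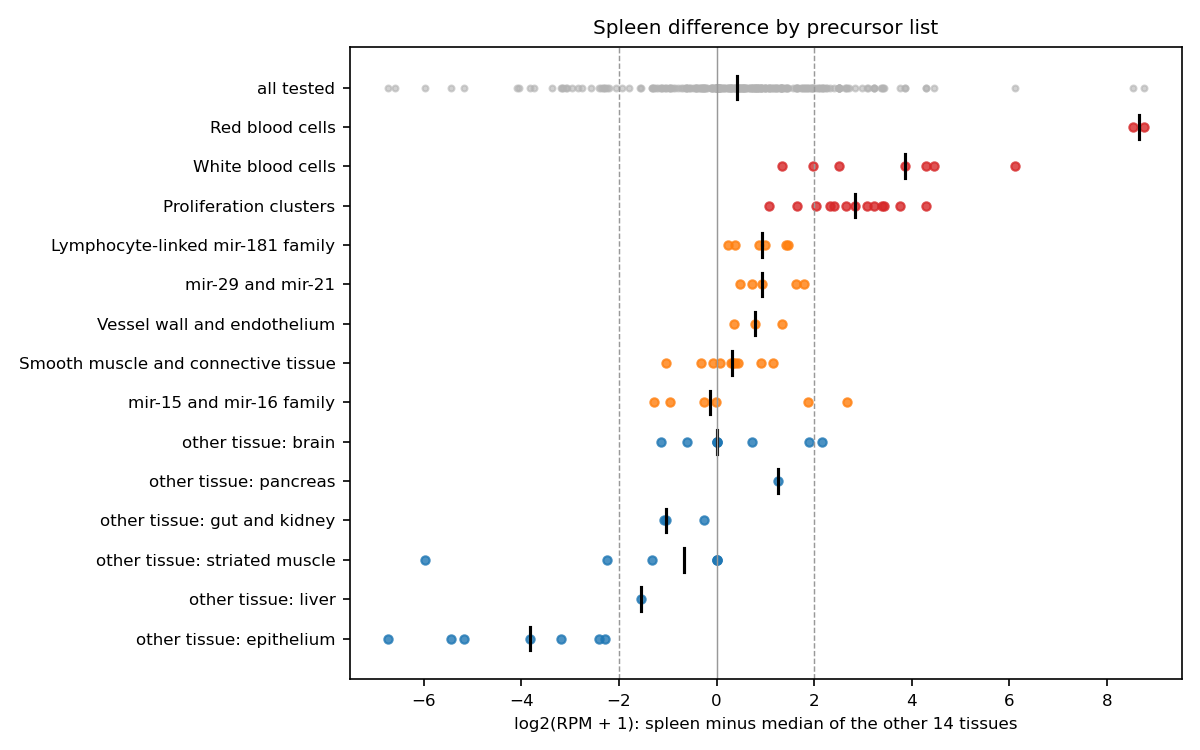
Difference of the spleen from the median of the other 14 tissues, in log2(RPM + 1), for each tested precursor of each list. Bars are list medians, grey points all 276 tested precursors and dashed lines 4-fold. Red cell, white cell and proliferation lists lie to the right, the epithelial list to the left, and stromal lists lie between the dashed lines.

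Precursors of the mir-17 cluster and its relatives, which are known to be active in dividing cells and in lymphocyte development, were high as a group. All 13 tested of the 14 listed were above the median of the other tissues, against 171 of all 276 tested. The list median difference was 2.83, and 10 of 13 were called high, against 29 of 276 over all tested (10.5%). This list was also chosen with earlier results of these data known, so its share is not a test. In RefSeq the members fall into groups of neighbouring hairpins. The 6 hairpins of the mir-17 cluster lie within 785 bases of chromosome 15, and 5 of them were called high. mir-19a stood at 305 RPM (239 to 388), a difference of 3.76, mir-18a at 84.3 RPM from 18 reads, 3.43, mir-19b-1 at 1499 RPM, 3.22, mir-20a at 295 RPM, 3.09, and mir-17-1 at 281 RPM, 2.83. mir-92a-1, the most abundant member at 10473 RPM, was widely expressed, with a median of 4967 RPM elsewhere and a difference of 1.08. Within the cluster, levels in spleen differed 124-fold between mir-18a and mir-92a-1.

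The related cluster on chromosome X showed the same direction. mir-363 was at 422 RPM (343 to 518), a difference of 4.30, mir-92a-2 at 1462 RPM, 3.39, and mir-19b-2 at 79.7 RPM from 17 reads, 2.33. mir-20b had only 4 reads and its mean was below the filter. mir-17-2, at a difference of 2.65, had 9 reads and so was not called. mir-93 and mir-25, neighbours on chromosome 12, were at 2066 and 4962 RPM with differences of 2.04 and 1.65, and mir-106b was at 398 RPM, 2.40. Thymus exceeded the spleen for 10 of the 14 listed precursors. Reads of mir-19b and mir-92a copies share a mature sequence, so the split between copies is uncertain. Relative to the median of all tested precursors, the list median was 2.40 higher here and 2.11 to 2.43 higher under the other scalings. Members called high numbered 6 with TMM factors, 7 with DESeq2 size factors and 7 without the 5 most abundant precursors. mir-93, mir-106b and mir-19b-2 were short of 4-fold under each of these scalings.

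Of the 29 high precursors, 10 were in none of the lists. They are named here after their values were seen, apart from mir-184, which was among the 10 with the largest difference. mir-184 was at 164 RPM (118 to 228) from 35 reads, a difference of 3.41, with testes next at 61.7 RPM, and it was highest in spleen under every scaling. mir-130b, at 431 RPM (352 to 529), was above the median by 3.22 and below thymus at 1445 RPM. mir-425 was at 1246 RPM, 2.18, with testes at 907 RPM. The other 7 were higher in some other tissue than in spleen. mir-138-1, mir-204, mir-326 and mir-488 had their maximum in brain, where mir-138-1 reached 1456 ± 296 RPM (SD, n = 3) against 103 RPM in spleen, and mir-449a had its maximum of 27295 RPM in testes against 70.3 RPM in spleen. mir-147, at 56.2 RPM, had its maximum in large intestine, and mir-652, at 103 RPM, in lung. Of these 10, mir-184, mir-130b and mir-138-1 remained past 4-fold under every scaling, and the other 7 did not with TMM factors. Over all 29, 7 rested on fewer than 20 spleen reads, 13 had thymus and 6 had brain as the highest other tissue.

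The most abundant precursors of the spleen were not its most distinctive ones. mir-143, a smooth muscle and fibroblast miRNA, led with 172787 RPM, 17.3% of the reads, and the other tissues ran from 24603 RPM in brain over 127862 RPM to 611902 RPM in stomach. let-7f-1 followed at 119967 RPM, mir-10a at 65273 RPM, mir-142 at 59167 RPM and let-7i at 56267 RPM. mir-21, mir-10b, mir-16, mir-191a and mir-22 lay between 29253 and 36226 RPM. mir-142 was the only one of these 10 called high.

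Several of these abundant precursors were nevertheless highest in spleen. The spleen was the highest of 15 tissues for 22 of 276 precursors (7.97%), and for 15 (5.43%) its interval lay above that of the next tissue. Of the let-7 family, which restrains proliferation in many cell types, let-7f-1, let-7g, let-7i and mir-98 were among them, whereas other members were not. let-7f-2 was at 20622 RPM against 30861 RPM in liver, and let-7a-1 and let-7a-2 were also lower than in liver. The let-7f copies share a mature sequence, so their split is uncertain. let-7i was at 56267 RPM (55297 to 57252) against 40913 RPM in thymus, and mir-98 was at 3421 RPM against 2471 ± 59.9 RPM in brain (SD, n = 3). Summed over the 9 arms with the let-7 seed GAGGUAG, the spleen held 273673 RPM of the mature total, against at most 237518 RPM in fat and a median of 171442 RPM. The lead of the abundant members was narrow and went with the scaling. Of the 22, mir-451, mir-144, mir-223 and mir-184 were highest under every scaling, 5 of the 22 were highest with TMM factors and 17 with totals that leave out the 5 most abundant precursors. Without the thymus pool, 34 precursors were highest in spleen.

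Lymphocyte development uses the mir-181 family, which sets the sensitivity of T cell receptor signalling in the thymus. None of the 6 members was called high in spleen, and thymus exceeded spleen for 6 of 6. mir-181a-1 was at 22795 RPM in spleen, 120458 RPM in thymus and 97908 ± 11010 RPM in brain (SD, n = 3), with a median of 8669 RPM. mir-181b-1 was at 2076 RPM in spleen against 30382 RPM in thymus. The spleen ranked from 5 to 7 of 15 for the members, and the list median of 0.93 fell to -0.30 with TMM factors. mir-181a-1 and mir-181a-2 share their mature 5p arm, and their split is uncertain.

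The mir-15 and mir-16 family, known for restraining cell division and survival in lymphocytes, was uneven in spleen. Its members share the seed AGCAGCA. mir-15b was at 173 RPM (126 to 239) from 37 reads, a difference of 2.67, with thymus next at 91.1 RPM. Its difference was 1.42 with TMM factors and 1.92 with DESeq2 size factors, both short of 4-fold. mir-16 was at 30031 RPM, 1.88, with thymus at 40187 RPM. mir-195, mir-497, mir-322-1 and mir-322-2 were under the median, with differences from -1.29 to -0.02. The list median was -0.14, and mir-15a was not analysed here.

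Stromal and vessel precursors did not separate the spleen from the other tissues. None of the 10 smooth muscle and connective tissue precursors was called, and their differences ran from -1.03 for mir-125b-2 to 1.16 for mir-10a. mir-145, the neighbour of mir-143 in smooth muscle biology, was at 351 RPM against a median of 275 RPM. mir-126a, the endothelial miRNA, was at 12206 RPM (11749 to 12681) against a median of 9781 RPM and 42495 RPM in heart. The smooth muscle and connective tissue median was 0.32, and it was negative under the other 3 scalings, at -0.997 with TMM factors, -0.57 with DESeq2 size factors and -0.38 without the 5 most abundant precursors. The vessel median was 0.78, and it was -0.37 with TMM factors, 0.08 with DESeq2 size factors and 0.34 without the 5 most abundant precursors. mir-21, raised in activated immune and stromal cells, was at 36226 RPM with a difference of 1.63, and all 5 tested precursors of the mir-29 and mir-21 list lay above the median here, whereas the list median was -0.09 with TMM factors.

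Among the miRNAs that mark unrelated tissues, those of liver, striated muscle and most of those of brain were at or near 0 reads in spleen, whereas some of the other lists were not. mir-122 of liver, the 3 mir-124 copies of brain, and mir-1, mir-133a, mir-133b, mir-206 and mir-208a of striated muscle had 0 of 213413 reads. In this library 3 reads would be 14.1 RPM. In their own tissues they reached 14726 RPM for mir-122 in liver, 1585 RPM for mir-124-1 in brain and 68920 RPM for mir-133a in muscle. mir-499 had 2 reads, and the mir-9a copies of brain had 1 to 3 reads. The mir-128 copies, also brain miRNAs, were present at 417 and 75.0 RPM, and mir-128-2, with 16 reads and a difference of 2.15, was 1 of the 29 called high, though it was short of 4-fold under each of the other 3 scalings. Of the pancreas list, mir-216a and mir-217 had 2 reads each, whereas mir-375, which is also made by endocrine cells elsewhere, was at 1181 RPM (1044 to 1336) from 252 reads. mir-192, of gut and kidney, was at 2769 RPM against 324177 RPM in small intestine. mir-215 was not analysed here.

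Epithelial miRNAs made up most of the low end. All 7 epithelial precursors were below the median of the other tissues, with differences from -6.74 to -2.28. The median difference of -3.83 is that of mir-200c, which had 0 spleen reads, so it depends on the 1 RPM added before log2. Of the 7 epithelial precursors, 5 were called low, against 7 of the 111 that could be called (6.31%). The list was chosen with earlier results of these data known, so its share is not a test. mir-200c and mir-205 had medians under 100 RPM elsewhere and could not be called. The mir-200 family keeps epithelial cells in their polarised state by repressing Zeb factors. Its members mir-200b, mir-200a and mir-429 lie within 1908 bases of chromosome 5 and had 1, 2 and 3 spleen reads. mir-200b was at 4.69 RPM (0.827 to 26.5), against a median of 616 RPM and 4624 RPM in large intestine. mir-200a was at 9.37 RPM (2.57 to 34.2) against a median of 396 RPM, and mir-429 at 14.1 RPM (4.78 to 41.3) against 679 RPM. The whole cluster was thus at the level of single reads in spleen, as it was in heart, muscle and testes. In these tissues mir-200b was at 5.21, 3.18 and 18.5 RPM.

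The other mir-200 cluster, on chromosome 4, was low as well. mir-141 had 33 reads, 155 RPM (110 to 217), against a median of 840 RPM, a difference of -2.41, and its neighbour mir-200c had 0 reads against a median of 13.2 RPM, too low for the low call. mir-203a, a skin miRNA, was at 103 RPM against 40295 RPM in skin and a median of 504 RPM. mir-205, of stratified epithelia, had 1 read. Outside the list, mir-182 of sensory and epithelial cells was at 426 RPM (347 to 523) against a median of 3656 RPM and 41799 ± 3674 RPM in brain (SD, n = 3). mir-31a was at 18.6 RPM against a median of 142 RPM. The next precursors in this order were mir-322-2, mir-351-1 and mir-27b, with differences from -1.29 to -1.12, so among the 111 precursors with a median of at least 100 RPM no difference lay between -2.28 and -1.29.

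The thymus, the other lymphoid organ of the series, was the tissue most like the spleen across precursors. Pearson's r of log2(RPM + 1) over the 276 precursors was 0.89 (Spearman's rho 0.88) for thymus, 0.88 (0.86) for fat, 0.85 (0.84) for lung, 0.73 (0.71) for muscle and 0.60 (0.58) for brain. These are descriptions across precursors of single libraries, and the points share the composition of the spleen library. The value for fat was close to that for thymus, and with 10 RPM added in place of 1 RPM fat came first.

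Compared with thymus, 39 of 276 precursors were 4-fold higher in spleen (14.1%) and 14 of the 109 with at least 100 RPM in thymus were lower (12.8%). Ratios have exact intervals from the read counts. The red cell pair led, at 397-fold (215 to 830) for mir-451 and 319-fold (190 to 586) for mir-144. Of the 7 white cell precursors, mir-223 was 10.9-fold (6.74 to 18.4) and mir-150 8.89-fold (7.51 to 10.6) higher in spleen, whereas mir-142 was at 0.906 (0.888 to 0.924), mir-155 at 1.06 (0.753 to 1.48) and mir-342 at 1.11 (0.762 to 1.58). The lymphoid organs thus differed in the myeloid mark and the mature lymphocyte mark more than in the mark shared by blood cells. mir-10a was higher in spleen by 3.70 on the log2 scale (ratio interval 12.5 to 13.5) and mir-99a 11.6-fold (7.57 to 18.2) higher in spleen, 2 of the 4 smooth muscle and connective tissue precursors that were higher. mir-375 was 38.9-fold (24.6 to 64.8) higher, at 1181 RPM against 30.4 RPM in thymus. For mir-375, large intestine at 18328 RPM, lung at 11499 RPM and small intestine at 7359 RPM were above the spleen. Stomach at 4247 RPM and testes at 4128 RPM were above it as well.

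**Figure D3:**
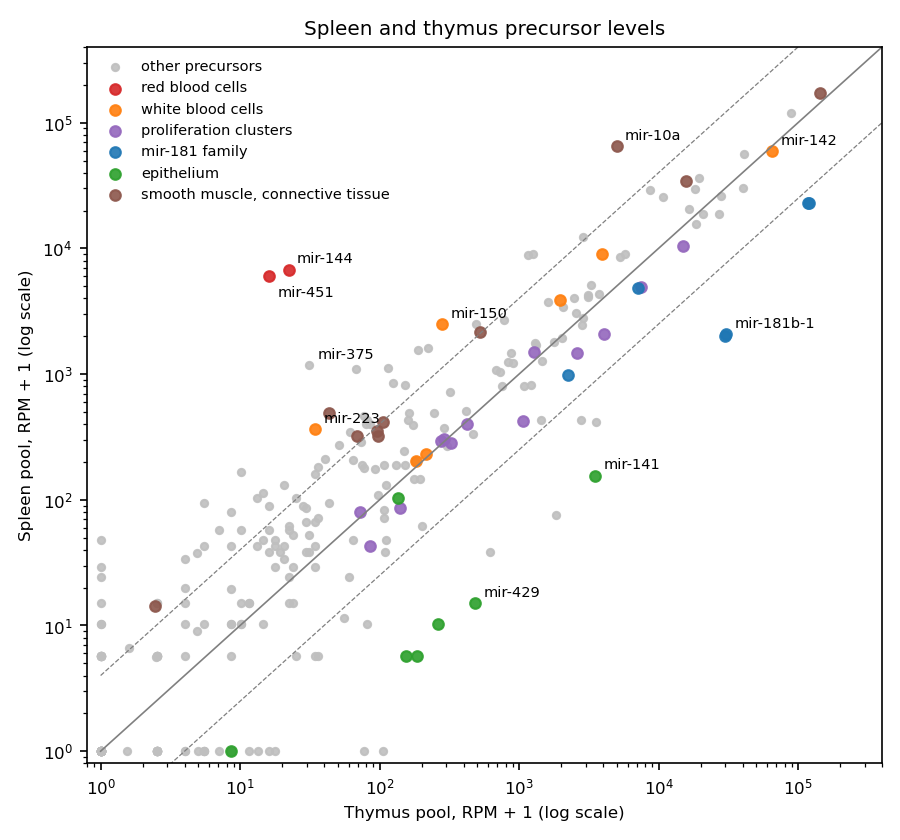
Level of each precursor in the spleen pool (vertical) against the thymus pool (horizontal), as RPM + 1 on log axes, coloured by list. The solid line is equality and the dashed lines are 4-fold, with mir-451 and mir-144 far above them and mir-181b-1, mir-141 and mir-429 below.

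In the other direction, the mir-181 family and the epithelial list stood out. mir-181a-1 was at 0.189 (0.184 to 0.195) of the thymus level, mir-181b-1 at 0.0683 (0.062 to 0.0751), and 4 of 6 members were called lower. mir-181c and mir-181d were at 0.680 and 0.440. Of the epithelial list 5 of 7 were lower, with mir-141 at 0.0441 (0.0303 to 0.0621) and mir-200b at 0.0306 (8e-04 to 0.174). mir-128-1, of the brain list, was at 0.118 (0.0941 to 0.145). No proliferation precursor was called in either direction, and their median difference from thymus was -0.51 against 0.36 over all tested. All 14 lower calls and 16 of the 39 higher calls remained past 4-fold under every scaling, mir-451, mir-144, mir-223, mir-150, mir-10a, mir-99a and mir-375 among them.

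Lung and liver, organs that hold much blood, gave a different contrast. Against lung, 34 of 276 precursors were 4-fold higher in spleen (12.3%) and 21 of 120 lower (17.5%). mir-451 and mir-144 were 39.6-fold (35.2 to 44.6) and 35.6-fold (32.0 to 39.7) higher and mir-142 36.3-fold (35.0 to 37.7), and 4 of 7 white cell and 8 of 13 proliferation precursors were called higher. mir-146b was lower than in lung, at 0.374 (0.349 to 0.401), and mir-126a at 0.370 (0.356 to 0.385), both short of 4-fold. Against liver, 52 of 276 were higher (18.8%) and 17 of 117 lower (14.5%). All 7 white cell precursors and all 6 members of the mir-181 family were called higher there, from 4.06-fold for mir-146a to 25.1-fold (8.10 to 126) for mir-155. In the mir-181 family the values ran from 5.74-fold to 15.4-fold. With TMM factors 6 of the 7 white cell calls remained, without mir-146a at 0.87, and 2 of the 6 mir-181 calls, mir-181c and mir-181d. Under all the other scalings together, 29 of the 34 higher calls against lung and 22 of the 52 against liver remained. Liver ratios were thus the more dependent on scaling.

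Reads that mapped to a precursor were not always counted on its annotated mature arms. The mature list held 77.2% of the number of spleen precursor reads, within the 60.3 to 87.8% of the other pools. Across 79 miRNAs with both arms, or a single arm with no side named, in the list, the median share was 83.1%, and 15 were under 25%. mir-451 was at 11.5% (9.88 to 13.4), 148 of 1286 reads, under the 16.0 and 20.1% of the 2 other tissues with at least 50 reads. Its partner mir-144 was at 92.1% (90.6 to 93.4), against 93.4 and 96.5% in the 2 others. The red cell pair was thus similar in precursor counts and far apart in counts on the listed arms, at 868 RPM for miR-451-5p and 5773 RPM for miR-144-5p. Since most mir-451 reads were not counted on a listed arm, whether the mature miRNAs differ in amount was not tested. mir-223 was at 38.5% (28.4 to 49.6), mir-142 at 53.8% (52.9 to 54.6) and mir-150 at 65.5% (61.3 to 69.4), each within or overlapping the range of the other tissues.

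**Figure D4:**
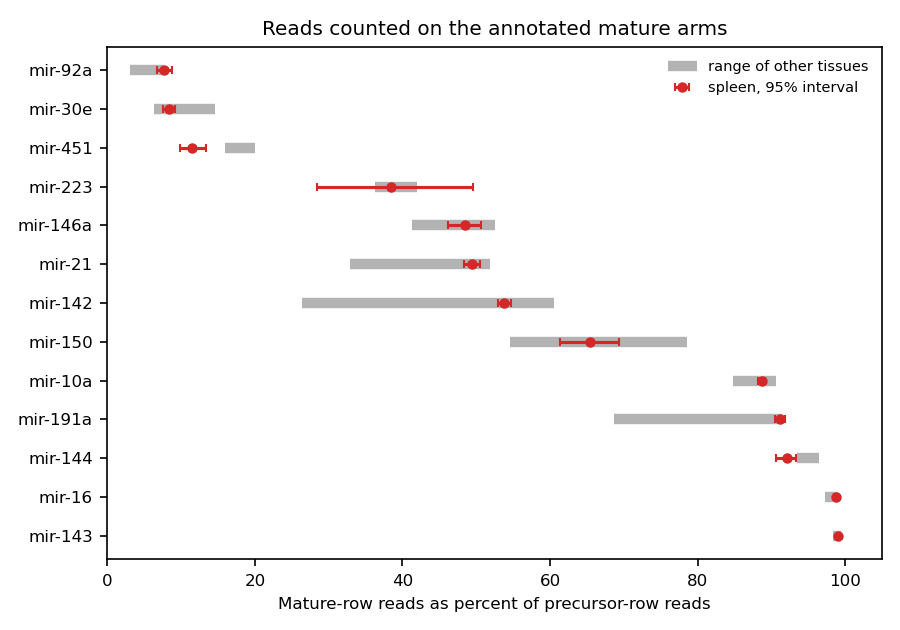
Reads on the annotated mature arms as percent of precursor reads for 13 miRNAs. Red points are spleen with 95% intervals and grey bars the range over other tissues with at least 50 precursor reads. mir-451 lies below the other tissues, mir-92a is low in every tissue, mir-16 and mir-143 near 100%, and for mir-451 the bar covers only 2 tissues.

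The choice of arm in spleen was mostly that of the other tissues. Of 58 miRNAs with at least 50 spleen reads on both arms together, 36 had at least 90% on 5p and 14 at most 10%. miR-142-5p had 6525 and miR-142-3p 266 reads, so that 96.1% (95.6 to 96.5) were 5p, within the 91.4 to 98.0% elsewhere. miR-144 was at 71.2% (68.7 to 73.6) 5p, between heart at 70.0% and lung at 82.2%. Of 55 miRNAs with at least 3 tissues to compare, the spleen interval lay outside the range of the others for 2. miR-30e was at 66.1% 5p (60.8 to 70.9) against 20.1 to 60.7%, and miR-16 was at 99.95% against at least 99.98%, a difference of 3 reads on 3p among 6333. miR-30e had 333 mature reads on 4003 precursor reads, so its arms held 8.32% of the hairpin's reads.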

How the data were processed

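miRNA was purified from the tissues, libraries were made with the TruSeq Small RNA kit and sequenced on a MiSeq, and the authors trimmed low-quality base calls (Phred 20), used Bowtie to place reads on the Rn5 genome, and obtained counts in Partek. They deposited estimated counts (expected counts, not normalized) of reads per miRNA under RefSeq, miRBase 21 precursor and miRBase mature annotations. The 444 precursor rows were used, with 577 mature rows for arms. Fractional counts (42 precursor rows in spleen) arise where a read matches several hairpins. RPM was taken within each annotation, and 1 RPM was added before log2. Other libraries used here were the 13 pools and the mean of 3 brain libraries. No p-value was computed, because the spleen has 1 library. Wilson and exact binomial intervals came from SciPy 1.17.1, tables from pandas 2.3.3 and Python 3.11.15, TMM factors from edgeR 4.0.16 and size factors from DESeq2 1.42.0 in R 4.3.3.

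The members of the lists and the precursors compared were chosen with earlier results of these data known. The named precursors are the list members, the 10 most abundant in spleen, and the 10 with the largest difference in each direction among those with at least 10 spleen reads (above) or at least 100 RPM elsewhere (below). Others are named as members of a count. Alternatives covered scaling, pseudocount, filter, reference level, fold, annotation, brain replicates and left-out pools. Sequences were matched by name for 534 of 577 mature rows.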

Additional observations from a re-analysis of the deposited data

Results flagged for a closer look

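Serum was left out of the comparison, but its 3 libraries held some precursors called high in spleen above the limit of 3 reads. mir-451 was at a mean of 2847 RPM (SD 941, n = 3) from 19, 23 and 31 reads, mir-142 at 7624 RPM (SD 2739) from 73, 49 and 69 reads, and mir-150 at 3079 RPM (SD 890) from 31, 27 and 21 reads. mir-150 in serum was near the 2498 RPM of the spleen pool, whereas mir-142 was far under the spleen's 59167 RPM. mir-144, which matched mir-451 in spleen, had 2, 1 and 3 serum reads, at or under the limit in each library, and mir-223 had 2, 1 and 2. The serum libraries held 7556 to 10862 precursor reads each.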

How the results depend on the processing

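The number of high precursors fell from 29 to 15 with TMM factors and 19 with DESeq2 size factors, that of low ones went from 7 to 11 with TMM factors, and that of precursors highest in spleen from 22 to 5 and 7. Precursors 4-fold higher than in thymus numbered 21 and 16 under the same scalings in place of 39. Leaving out the thymus pool gave 34 precursors highest in spleen. At 2-fold, 62 were high, 11 low and 67 higher than in thymus, and at 8-fold 16, 4 and 15. With 10 RPM added, r with thymus was 0.901 and fat came first. No other alternative moved one of these counts by over 1.5 times, annotation, filters and other left-out pools included. Across 108 named precursors, no called difference changed sign under any alternative, and of the 36 calls 22 remained past 4-fold with TMM factors, 26 with DESeq2 size factors and 35 without the library labelled pancreas. Leaving out each brain library in turn left 36 of 36. Leaving out the fat pool, and the alternatives for thymus, were chosen after seeing the data. No paired analysis was possible because the spleen is 1 library with no replicate, and only brain and serum carry replicate numbers. Depth limits the low end, since 3 spleen reads are 14.1 RPM.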
